A study of Homo sapiens with 6 samples.

Results

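The 10 genes described here encode matrix metalloproteases known from fibrosarcoma invasion (MMP1, MMP2, MMP3, MMP9, MMP10 and MMP14), their tissue inhibitors (TIMP1, TIMP2 and TIMP3) and BSG, the surface glycoprotein basigin. They were taken by gene name from a table of 60675 gene rows, in which each of the 10 names occurred on a single row, and 9 of them had enough reads to test. The study asked how selective inhibitors of the lysine deacetylase KDAC6, also named HDAC6, are. HT1080 cells, an established human fibrosarcoma line of wild-type genotype per the labels, were given SW-138 or SW-113 at 1 µM for 48 h, with 3 libraries for each compound. Each compound is compared only with the other, because a vehicle group is not among the labels. Differences are given as SW-138 minus SW-113, and a gene higher in SW-138 could be raised by SW-138, lowered by SW-113, or both.

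Matrix metalloproteases are zinc endopeptidases made as inactive precursors, in which a cysteine of the propeptide occupies the catalytic zinc until the propeptide is removed. MMP14 sits in the plasma membrane, cleaves collagen around the cell, and activates the precursor of the gelatinase MMP2 in a complex that includes TIMP2, so TIMP2 both assists and inhibits this step. TIMPs block the active site with their amino end. HT1080 cells have long been used to study this system, because they carry MMP14 and secrete MMP2, and basigin is known as an inducer of metalloproteases and as a chaperone of lactate transporters.

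The coding stretches that define the groups are shown first, read from GENCODE transcripts on GRCh38. The first set is the cysteine switch of the 6 proteases, 7 codons with the cysteine codon in capitals.
MMP1 (chr11:102797318-102797338, minus strand, exon 2): cccagaTGTggagtgcctgat
MMP2 (chr16:55483053-55483073, plus strand, exon 2): ccacgcTGCggcaacccagat
MMP3 (chr11:102842734-102842754, minus strand, exon 2): cccaggTGTggagttcctgat
MMP9 (chr20:46010016-46010036, plus strand, exon 2): ccacggTGCggggtcccagac
MMP10 (chr11:102779566-102779586, minus strand, exon 2): cccaggTGTggagttcctgac
MMP14 (chr14:22841926-22841946, plus strand, exon 3): ccccgaTGTggtgttccagac
The second set is the catalytic zinc site of the same 6 genes, 11 codons with the 3 zinc-binding histidine codons in capitals.
MMP1 (chr11:102795549-102795581, minus strand, exon 5): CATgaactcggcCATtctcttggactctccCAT
MMP2 (chr16:55491827-55491859, plus strand, exon 8): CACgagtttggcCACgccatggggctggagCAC
MMP3 (chr11:102840535-102840567, minus strand, exon 5): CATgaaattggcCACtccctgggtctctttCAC
MMP9 (chr20:46012453-46012485, plus strand, exon 8): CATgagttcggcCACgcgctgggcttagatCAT
MMP10 (chr11:102776718-102776750, minus strand, exon 5): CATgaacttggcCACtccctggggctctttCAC
MMP14 (chr14:22843283-22843315, plus strand, exon 5): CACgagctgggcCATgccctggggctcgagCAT
All 6 genes hold a single match to each pattern, and the switch lies in exon 2 in 5 of them and in exon 3 in MMP14. MMP14 also holds the recognition site of the convertase furin, which removes its propeptide inside the cell.
MMP14 (chr14:22841977-22841988, plus strand, exon 3): CGAAGGAAGCGC
The third set is the start of the mature inhibitor in the TIMP genes, 8 codons with the cysteine codons in capitals.
TIMP1 (chrX:47583485-47583508, plus strand, exon 2): TGCaccTGTgtcccaccccaccca
TIMP2 (chr17:78924987-78925010, minus strand, exon 1): TGCagcTGCtccccggtgcacccg
TIMP3 (chr22:32802071-32802094, plus strand, exon 1): TGCacaTGCtcgcccagccacccc

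The libraries held 32771670 to 50871623 estimated read counts. Levels are given as CPM, counts scaled to 1000000 per library. Log2 CPM of libraries of the same compound correlated at 0.984 to 0.990, and of different compounds at 0.982 to 0.989. Stable noncoding RNAs took 6.04% to 8.22% of the counts in SW-138 libraries and 8.74% to 9.86% in SW-113 libraries. The label of the cells was read against marker genes. VIM, the mesenchymal filament gene, averaged 3763 ± 85.1 CPM in SW-138 and 3465 ± 185 CPM in SW-113 (SD, n = 3 each). S100A4, another mesenchymal marker, was scarce, with 22 to 55 counts in a library. The remaining mesenchymal markers averaged at least 18.6 CPM in SW-138 and 21.9 CPM in SW-113, the values of TGFBI. The 4 epithelial markers had at most 3 counts in a library, and KRT5 and KRT14 had 0 throughout. Of the 8 mesenchymal markers edgeR called 1 lower, TGFBI (-0.24 on the log2 scale, adjusted p = 0.0385), and 0 higher (1 higher at an unadjusted p under 0.05). DESeq2 called 0 lower and 1 higher, limma-voom 1 lower and 0 higher, and edgeR without SW-138 replicate 2 called 0 lower and 3 higher. Of all tested genes edgeR called 4.06% lower and 2.76% higher. The share of all genes called higher was 4.67% with DESeq2, 4.67% without SW-138 replicate 2 and 2.74% with limma-voom (6.68% in either direction). Of the 4 leukocyte markers PTPRC, CD3E and CD14 had at most 4 counts in a library, while CD68, a lysosomal protein gene, was at 85.2 ± 9.74 CPM in SW-138 and 91.7 ± 3.07 CPM in SW-113. Of the 4 endothelial markers CDH5 and VWF had at most 5 counts in a library, and KDR (9 to 26 counts) and PECAM1 (6 to 15 counts) were tested and did not pass. The endothelial markers summed to 0.473 to 0.959 CPM in SW-138 libraries and 0.565 to 0.831 CPM in SW-113 libraries. Whether replicates were separate cultures is not in the labels; the p-values below rest on the spread between the 3 libraries of a compound, which may be technical. In bulk RNA, a change in the number of cells with a message and a change in the message per cell cannot be told apart.

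MMP1, the interstitial collagenase, was the member that passed the test between the compounds: its mRNA was 1.39-fold higher in SW-138. It was the 1 member past the threshold among 9 tested, an adjusted p of 0.05 by edgeR's quasi-likelihood test with Benjamini-Hochberg adjustment over all genes, and 0 members were lower (0 at an unadjusted p under 0.05, and 0 with DESeq2 or limma-voom). Among all 16905 tested genes 6.82% passed, 2.76% higher and 4.06% lower, while DESeq2 called 10.2% of its genes (4.67% higher) and limma-voom 6.68% (2.74% higher). MMP14, the membrane-type protease, was by far the most abundant metalloprotease message in both groups and did not pass, and neither did MMP2, any TIMP or BSG. The median log2 fold change of the 9 members was 0.13, against 0.01 over all tested genes.

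MMP1 (ENSG00000196611, GRCh38 chromosome 11, 102789920 to 102798160, minus strand) lies in a cluster of collagenase and stromelysin genes with MMP3 and MMP10. It had 64.1, 58.5 and 69.4 CPM in SW-138 replicates 1, 2 and 3, against 45.6, 45.2 and 47.1 CPM in SW-113 replicates 1, 2 and 3. The groups did not overlap, and the lowest SW-138 library lay above the highest SW-113 library by more than the whole range of the SW-113 libraries. Libraries did not overlap for 27.9% of all tested genes, and MMP1 was the 1 of 9 members with that property. The means were 64.0 ± 5.46 CPM in SW-138 and 46.0 ± 0.990 CPM in SW-113 (SD, n = 3 each), a log2 difference of 0.48 ± 0.07 (SE; 95% interval 0.33 to 0.62; edgeR adjusted p = 0.00373). The call held in all 17 alternative fits, which gave log2 fold changes from 0.42 to 0.54 and adjusted p-values from 2.45e-10 to 0.0277. Stable noncoding RNAs took a smaller share of every SW-138 library, as given above. With these and the mitochondrial genes left out the MMP1 difference was 0.48, and after removal of trends with length and GC content it was 0.45 (limma, adjusted p = 0.0148). No read was assigned to WTAPP1, the pseudogene annotated on the opposite strand across MMP1, MMP3 and MMP10.

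**Figure D1:**
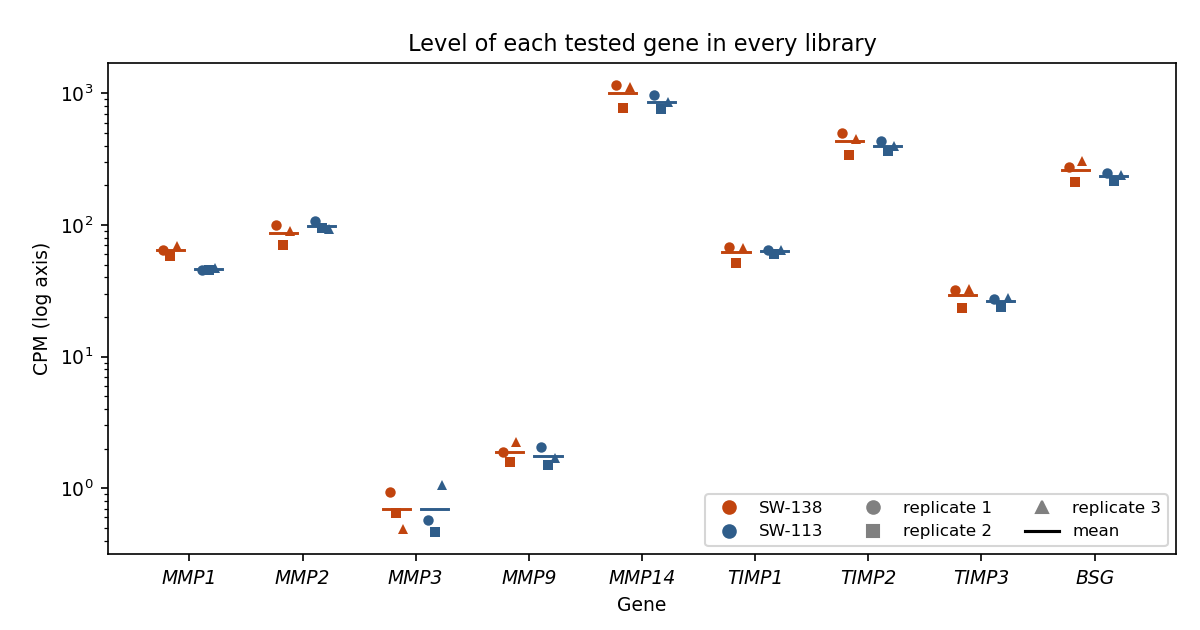
CPM (log axis) of the 9 tested members in every library, SW-138 left of SW-113, with a bar at the mean of 3 libraries and a symbol for each replicate number. The MMP1 libraries separate by compound, at 58.5 to 69.4 CPM in SW-138 and 45.2 to 47.1 CPM in SW-113, and the other genes overlap.

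The remaining secreted collagenase-cluster genes were close to the limit of detection. MMP3, stromelysin, which cleaves matrix and activates other precursors, had 39, 22 and 18 counts in the SW-138 libraries and 22, 23 and 43 counts in the SW-113 libraries, so its libraries overlapped fully. Its log2 fold change was 0.01 with a 95% interval of -0.82 to 0.84, and a difference of either sign within these bounds was not detectable in these libraries. MMP10, a second stromelysin, had 1, 4 and 1 counts in the SW-138 libraries and 0, 0 and 1 counts in the SW-113 libraries and was not tested. The ratio of its 6 counts in SW-138 to the 1 count in SW-113, scaled for library size, was 6.88 with an exact 95% interval of 0.834 to 316 that covers counting error alone. A count of 0 allows up to 0.0605 CPM in the deepest library and 0.0888 CPM in the shallowest.

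The gelatinases MMP2 and MMP9 degrade denatured collagen and basement membrane collagen. MMP2 (ENSG00000087245, chromosome 16, 55389700 to 55506691) had 100.03, 70.1 and 90.6 CPM in the SW-138 libraries and 106, 94.2 and 93.2 CPM in the SW-113 libraries. SW-138 replicate 2 was the lowest of the 6, SW-113 replicate 1 the highest, and the groups overlapped. The log2 difference was -0.17 ± 0.11 (SE; 95% interval -0.42 to 0.08; edgeR adjusted p = 0.401). With single libraries left out it moved to -0.04 (SW-138 replicate 2), -0.28 (SW-138 replicate 1) or -0.11 (SW-113 replicate 1), and none of these fits called it. MMP9 was scarce, at 1.89, 1.57 and 2.23 CPM in SW-138 and 2.05, 1.49 and 1.70 CPM in SW-113, with an interval of -0.32 to 0.57. MMP9 overlaps an antisense gene that had 2 to 16.1 counts in a library where MMP9 had 53 to 82, and the strand setting of the counting is not given in the sources used here.

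MMP14 (ENSG00000157227, chromosome 14, 22836557 to 22849027, plus strand) had 1150.3, 772 and 1115 CPM in SW-138 replicates 1, 2 and 3, against 971, 759.6 and 864 CPM in SW-113 replicates 1, 2 and 3. SW-138 replicates 1 and 3 lay above all SW-113 libraries, and SW-138 replicate 2 lay near the lowest of them. The log2 difference was 0.23 ± 0.14 (SE; 95% interval -0.08 to 0.53; edgeR adjusted p = 0.369). Without SW-113 replicate 2 it was 0.14 and did not pass (edgeR adjusted p = 0.679). Without SW-138 replicate 2 it was 0.39 and passed (edgeR adjusted p = 0.0129). It also passed when genes with 1 count in 1 library were kept (adjusted p = 0.00391), in a fit that called 6.54% of genes, 3.15% higher. It passed in 3 of its 17 alternatives, over which the adjusted p ran from 0.00391 to 0.684.

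The inhibitors did not pass either. TIMP1 (ENSG00000102265, chromosome X, 47582313 to 47586789), a broad inhibitor of secreted metalloproteases, had 67.8, 51.2 and 66.4 CPM in the SW-138 libraries and 64.8, 59.8 and 64.1 CPM in the SW-113 libraries. Its log2 fold change was -0.02 with a 95% interval of -0.23 to 0.19, and the sign turned with scaling by total count alone (0.041). TIMP2 (ENSG00000035862, chromosome 17, 78852977 to 78925387), the partner of MMP14 and MMP2, had 502, 342 and 448 CPM in SW-138 and 437, 363 and 398 CPM in SW-113. The extremes of TIMP2 were both SW-138 libraries, and the log2 fold change was 0.11 with an interval of -0.16 to 0.38. TIMP3, which binds to the matrix and also inhibits ADAM proteases, had 32.1, 23.3 and 32.9 CPM in SW-138 and 27.4, 23.7 and 27.8 CPM in SW-113, with an interval of -0.10 to 0.44. TIMP1 and TIMP3 lie inside the synapsin genes SYN1 and SYN3 on the opposite strand, which had at most 5 and 0 counts in a library.

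BSG (ENSG00000172270, chromosome 19, 571277 to 583493) had 273, 213 and 304 CPM in the SW-138 libraries and 250.2, 214 and 240.4 CPM in the SW-113 libraries. SW-138 replicates 1 and 3 lay above every SW-113 library and SW-138 replicate 2 below them all. The log2 difference was 0.17 ± 0.11 (SE; 95% interval -0.08 to 0.41; edgeR adjusted p = 0.421). Leaving out SW-138 replicate 2 gave 4 members higher (MMP1, MMP14, TIMP3 and BSG), in a fit that called 9.39% of its genes, 4.67% higher. In that fit BSG was at 0.29 (adjusted p = 0.0219) and TIMP3 at 0.31 (adjusted p = 0.0244). Replicate 2 was the lowest library in both compounds for these 4 genes. With SW-113 replicate 2 left out instead, BSG was at 0.10 (edgeR adjusted p = 0.726) and TIMP3 at 0.09 (adjusted p = 0.768), and neither passed.

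**Figure D2:**
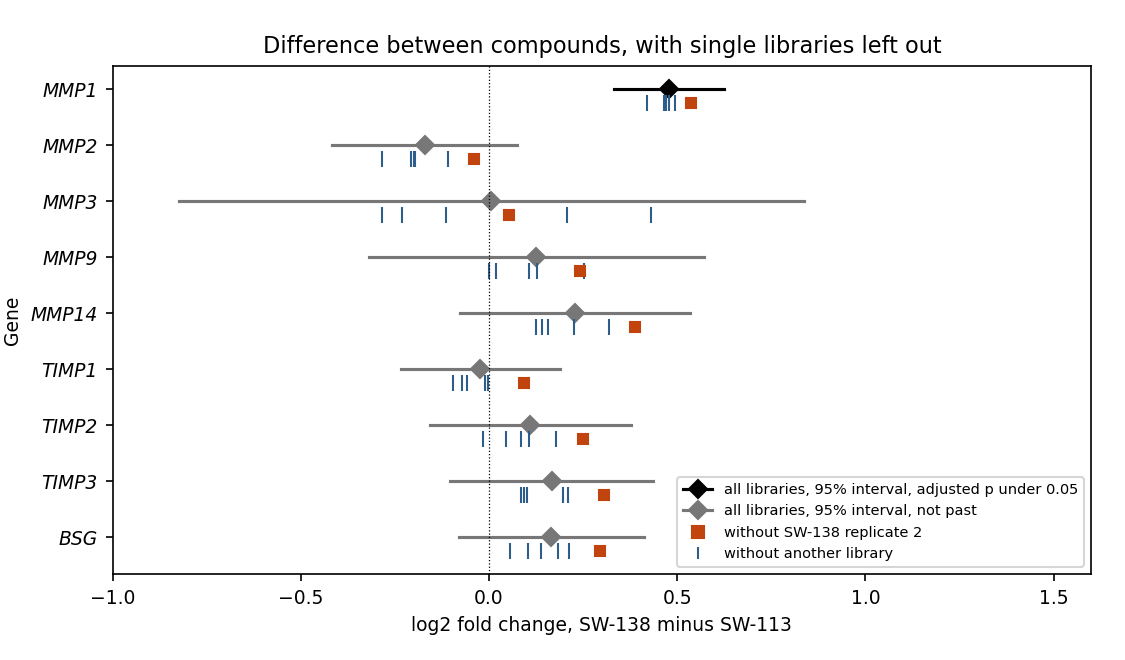
Log2 fold change (SW-138 minus SW-113) of the 9 tested members with all 6 libraries (diamonds, with 95% intervals) and with a single library left out (small marks; the square is the fit without SW-138 replicate 2). The interval of MMP1, 0.33 to 0.62, lies above 0, the other 8 include 0, and every square except that of MMP3 and MMP9 is the value furthest to the right for its gene.

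Members varied together between libraries of the same compound. In 7 of 9 tested members (MMP1, MMP9, MMP14, TIMP1, TIMP2, TIMP3 and BSG) replicate 2 was the lowest library both in SW-138 and in SW-113, as it was for 17.8% of all tested genes. MMP2 had its lowest value in SW-138 replicate 2 and MMP3 in SW-113 replicate 2. The coefficient of variation of MMP14 was 20.6% in SW-138 and 12.2% in SW-113, where the medians of 9494 genes with a mean of at least 10 CPM were 5.16% and 4.37%. TIMP2 varied by 18.9% in SW-138 and 9.25% in SW-113, and BSG by 17.4% and 7.92% in the same order. MMP1 varied by 8.53% in SW-138 and 2.15% in SW-113. SW-138 replicate 2 was the shallowest library (32771670 counts) and SW-113 replicate 2 the deepest (50871623). The part of library depth or RNA makeup in this shared variation was not tested.

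**Figure D3:**
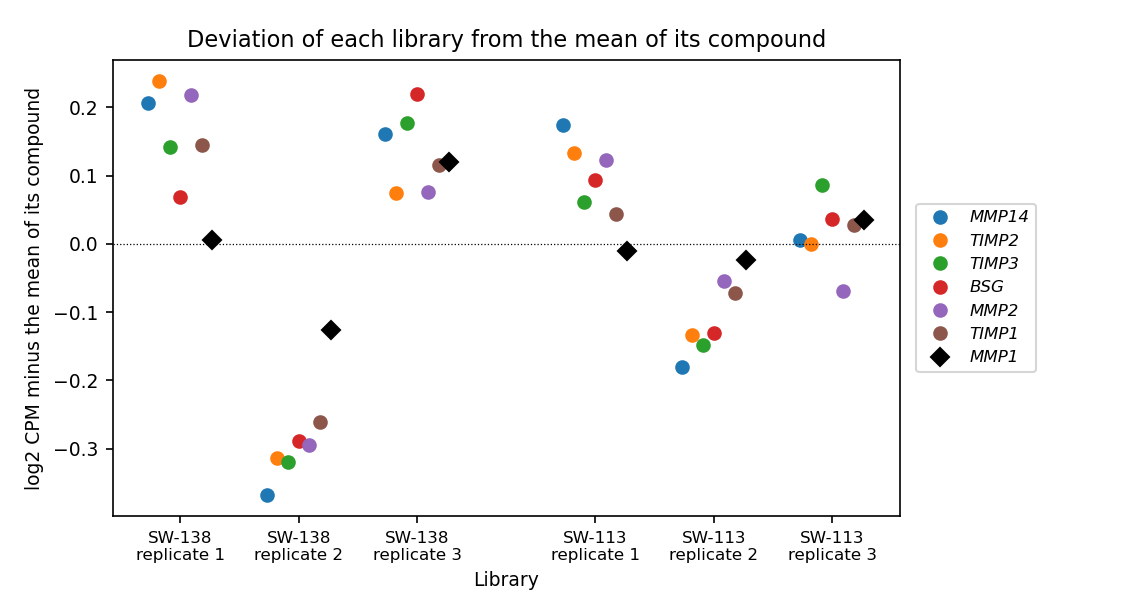
Deviation of 7 members in each library from the mean of its compound, in log2 CPM (y axis), for the SW-138 libraries on the left and the SW-113 libraries on the right, with points spread sideways by gene. The 7 genes all lie below 0 in SW-138 replicate 2 and in SW-113 replicate 2, and MMP1 (diamonds) deviates less than the others in SW-138 replicate 2.

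A ratio of genes within a library does not depend on how the library is scaled. The log2 ratio of MMP1 to TIMP1 counts was -0.08, 0.19 and 0.06 in SW-138 replicates 1, 2 and 3, against -0.51, -0.40 and -0.44 in SW-113 replicates 1, 2 and 3. The groups did not overlap, and the difference of the means, SW-138 minus SW-113, was 0.51. The log2 ratio of MMP2 to TIMP2 was -2.33, -2.29 and -2.31 in SW-138, against -2.04, -1.95 and -2.10 in SW-113, a difference of -0.28 that was again larger than the spread inside either group. The ratio of MMP14 to TIMP2 was higher in every SW-138 library, at 1.20, 1.17 and 1.32 against 1.15, 1.07 and 1.12 in SW-113, a difference of 0.12. In each of the 3 ratios the exact two-sided permutation test gave p = 0.10, which is the smallest p that 3 libraries against 3 allow, and p = 0.10 after adjustment over the 3 ratios. Relative to TIMP1, 4 of the 8 other tested members did not overlap between the groups (MMP1, MMP14, TIMP3 and BSG), all higher in SW-138. Relative to TIMP2, 3 of 8 did not overlap (MMP1, MMP2 and MMP14). Set against the same inhibitors, 12.5% of all tested genes had a non-overlapping ratio to TIMP1 (9.39% higher in SW-138). Such a ratio to TIMP2 was found for 7.57% (2.89% higher and 4.69% lower). Without SW-113 replicate 2 or 3, or without SW-138 replicate 3, the MMP14 to TIMP2 libraries of the groups no longer gave the smallest p (exact permutation p = 0.20).

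Relative to MMP1, 6 of the 8 other tested members had non-overlapping ratios, all lower in SW-138, with differences of the 8 from -0.66 for MMP2 to -0.26 for MMP14; MMP3 and MMP14 overlapped. Of all tested genes 71.1% did not overlap relative to MMP1, 70.5% lower in SW-138, a share near that of the members. Relative to MMP2, 5 of 8 did not overlap (MMP1, MMP14, TIMP2, TIMP3 and BSG), all higher in SW-138, where 18% of all tested genes were and 19% did not overlap. These ratios were chosen after the members' values were seen and share the same 6 libraries.

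**Figure D4:**
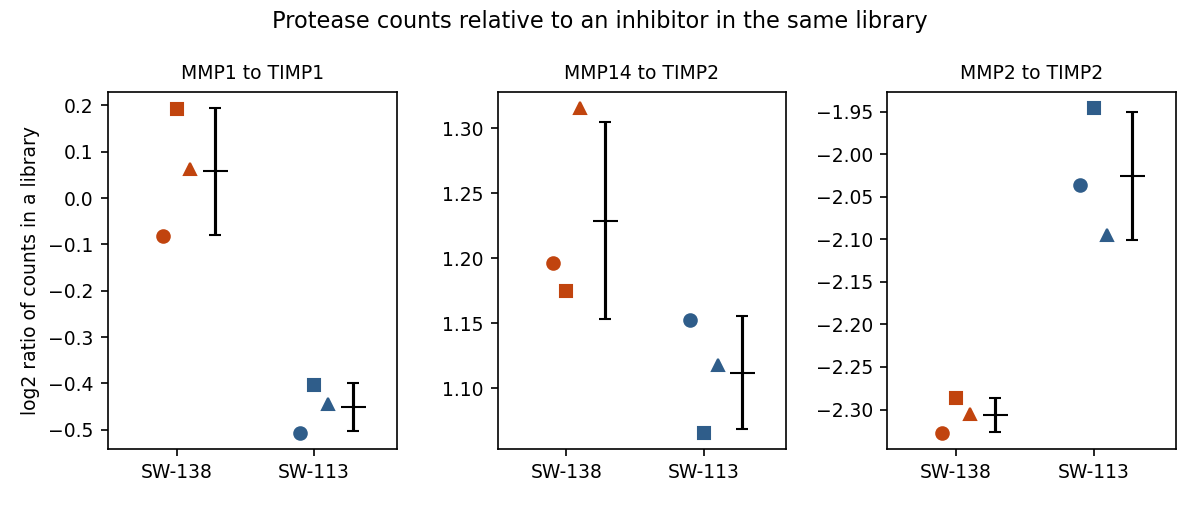
Log2 ratio of protease to inhibitor counts in each library for MMP1 to TIMP1, MMP14 to TIMP2 and MMP2 to TIMP2 (3 panels with their own axes), SW-138 left of SW-113, with the mean and SD of 3 libraries beside the points. No panel has overlap between the compounds; the mean of MMP2 to TIMP2 is -2.31 in SW-138 and -2.03 in SW-113.

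Levels of different genes were compared as CPM per kilobase of the longest coding transcript in the basic annotation. MMP14 ranked first, with a mean of 252 and a range of 204 to 308 CPM per kilobase over the 6 libraries. BSG (126) and TIMP2 (114) followed with overlapping ranges, although BSG was above TIMP2 in 6 of 6 libraries. TIMP1 (56.9) came next, then MMP1 (27.9) and MMP2 (24.7), whose ranges overlapped and whose order differed between the compounds: MMP1 averaged 32.5 ± 2.77 and MMP2 23.2 ± 4.09 CPM per kilobase in SW-138, while MMP1 averaged 23.3 ± 0.502 and MMP2 26.2 ± 1.98 in SW-113 (SD, n = 3 each). TIMP3 (6.05), MMP9 (0.780), MMP3 (0.344) and MMP10 (0.0184) stood at the end, each below the range of the gene before it.

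Within the family of 23 MMP genes in the table, MMP14 made up 79.2% ± 2.24 of the summed CPM per kilobase in SW-138 and 78.3% ± 1.64 in SW-113 (SD, n = 3 each). MMP1 made up 9.66% ± 1.25 in SW-138 and 7.94% ± 0.776 in SW-113, and MMP2 made up 6.82% ± 0.269 in SW-138 and 8.88% ± 0.526 in SW-113. Among the TIMP genes TIMP2 held 65.1% ± 1.28 in SW-138 and 63.3% ± 1.23 in SW-113, TIMP1 31.3% ± 1.15 and 33.4% ± 1.18 in the same order, and TIMP4 had 0 counts in all 6 libraries. The other 17 MMP genes were mostly near 0: 13 were not tested, with at most 14.5 counts in a library, and MMP20, MMP26 and MMP27 had 0 throughout. The 4 that were tested are membrane-type proteases, and edgeR called 0 (0 at an unadjusted p under 0.05, 0 with DESeq2 or limma-voom). MMP16, which like MMP14 can activate the MMP2 precursor, was at 95.4 ± 5.18 CPM in SW-138 and 99.7 ± 2.66 CPM in SW-113, a log2 fold change of -0.06 (0.0011 with scaling by total count alone). MMP15 was at -0.11 and MMP17 at 0.04.

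Promoter windows from RefSeq (GRCh38.p14, 250 bases before to 50 after the start) matched 5 of the 10 members in 6 windows. They are shown for the most abundant protease, for the near-silent MMP10 and for TIMP1, with matches to TGANTCA (the AP-1 motif) and GGGCGG (the GC box) on either strand in capitals.
MMP14 (chr14:22836335-22836634, plus strand): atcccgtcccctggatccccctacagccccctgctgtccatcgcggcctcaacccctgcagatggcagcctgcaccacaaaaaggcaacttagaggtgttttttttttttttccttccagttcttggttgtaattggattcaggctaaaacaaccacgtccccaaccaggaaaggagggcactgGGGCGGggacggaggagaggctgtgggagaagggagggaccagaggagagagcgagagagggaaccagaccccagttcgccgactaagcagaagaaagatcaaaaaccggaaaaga
MMP10 (chr11:102780579-102780878, minus strand): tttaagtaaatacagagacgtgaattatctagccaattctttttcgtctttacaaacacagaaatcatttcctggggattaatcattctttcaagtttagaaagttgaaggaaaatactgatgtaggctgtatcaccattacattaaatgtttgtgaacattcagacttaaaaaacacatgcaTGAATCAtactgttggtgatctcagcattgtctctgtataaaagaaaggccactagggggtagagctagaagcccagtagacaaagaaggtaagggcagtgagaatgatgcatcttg
TIMP1 (chrX:47582186-47582485, plus strand): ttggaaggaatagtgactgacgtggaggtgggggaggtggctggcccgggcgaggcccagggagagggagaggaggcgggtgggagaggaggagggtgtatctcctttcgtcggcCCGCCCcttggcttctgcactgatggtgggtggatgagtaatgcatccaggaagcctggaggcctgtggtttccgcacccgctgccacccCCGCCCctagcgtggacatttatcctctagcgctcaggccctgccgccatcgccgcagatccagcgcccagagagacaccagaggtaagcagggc
The MMP10 window holds the AP-1 letters with their first base at -67 and no GC box, and is the 1 of 6 windows with an AP-1 match, which 7.71% of all 35116 windows hold. MMP14 holds a GC box at -66 and TIMP1 holds 2, and 45% of all windows hold at least 1. The TIMP3 window holds 5 GC boxes and the 2 BSG windows hold 0 and 3, without overlap between the motifs. A match is a description of letters and not a measured site.

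Genes for factors that act on metalloprotease promoters included the clearest differences near the family. AP-1, a dimer of FOS and JUN proteins, and ETS factors are known regulators of MMP1. The list of 14 holds these factors and RUNX2. It had 4 higher genes and 0 lower ones by edgeR, where 2.76% of all tested genes were higher and 4.06% lower. At an unadjusted edgeR p under 0.05, 1 gene was lower, and DESeq2 and limma-voom called 0 lower. The median log2 fold change was 0.09, against 0.01 over all tested genes. FOS had 5.16, 3.67 and 4.86 CPM in SW-138 and 1.53, 0.907 and 0.860 CPM in SW-113, 2.07 ± 0.25 on the log2 scale (SE; edgeR adjusted p = 0.00185). FOSB, the scarcer gene, was at 1.34 ± 0.137 CPM in SW-138 and 0.237 ± 0.0397 CPM in SW-113 (SD, n = 3 each), with a log2 fold change of 2.48 ± 0.30. ETS2 was at 96.2 ± 3.13 CPM in SW-138 and 70.1 ± 2.95 CPM in SW-113, a log2 fold change of 0.46 ± 0.05, and ETS1 at 221 ± 2.59 CPM in SW-138 and 174 ± 5.10 CPM in SW-113, 0.34 ± 0.04. These 4 calls held in every alternative in which the gene was tested. Without SW-138 replicate 2 the list had 6 higher and 1 lower, in a fit that called 4.67% of its genes higher. The abundant AP-1 genes FOSL1 and FOSL2 were at 0.01 and 0.02, and JUN, JUNB and JUND at 0.21, 0.25 and -0.22 did not pass. The difference in FOS was known when this list was chosen, so it is no independent evidence. A link between these genes and the MMP1 difference was not tested.

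ADAM and ADAMTS genes and other metalloprotease inhibitors held 1 call, where edgeR called 2.76% of all tested genes higher and 4.06% lower. Of 12 tested ADAM genes, a family that includes membrane sheddases, edgeR called 0, with 4 higher at an unadjusted p under 0.05. DESeq2 called 2 higher, limma-voom 0, and edgeR without SW-138 replicate 2 called 3 higher. The DESeq2 fit and the fit without SW-138 replicate 2 each called 4.67% of all their genes higher. The smallest p-values were those of ADAM23 (0.26 ± 0.07, SE, adjusted p = 0.0641), ADAM9 (0.23 ± 0.07, adjusted p = 0.0899) and ADAM10 (0.16 ± 0.05, adjusted p = 0.112; edgeR). Of the 12, 11 had a log2 fold change above 0, with a median of 0.14. Over all 16905 tested genes 8711 lay above 0, and the median was 0.01. ADAM23 passed in 7, ADAM9 in 5 and ADAM10 in 2 of 17 alternatives. Of 12 tested ADAMTS genes, which encode secreted proteases of proteoglycans and procollagens, 1 was higher, ADAMTS6, at 69.7 ± 4.38 CPM in SW-138 and 57.8 ± 1.07 CPM in SW-113 (SD, n = 3 each; log2 fold change 0.27 ± 0.06, edgeR adjusted p = 0.0202). Leaving out any SW-113 library, or SW-138 replicate 1, ended this call, with log2 differences of 0.25 to 0.28 and edgeR adjusted p-values of 0.0587 to 0.0873. ADAMTS14 (0.58 ± 0.26) and ADAMTS9 (-0.46 ± 0.26) did not pass. RECK, a membrane-anchored inhibitor of metalloproteases, was the 1 of 5 other inhibitors with enough reads, at 8.53 ± 0.913 CPM in SW-138 and 7.29 ± 0.412 CPM in SW-113, 0.23 ± 0.10 (edgeR adjusted p = 0.212).

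Genes that carry and activate MMP14 held 1 call. Of 20 tested, 0 were higher (1 at an unadjusted p under 0.05, 1 with DESeq2 and 0 with limma-voom) and 1 was lower, RAB27A, a small GTPase of vesicle secretion, at 67.7 ± 1.75 CPM in SW-138 and 77.9 ± 2.15 CPM in SW-113 (SD, n = 3 each; -0.20 ± 0.05, edgeR adjusted p = 0.0356). Of all tested genes edgeR called 4.06% lower and 2.76% higher, and DESeq2 called 4.67% of its genes higher. RAB27A did not pass with scaling by total count alone (-0.14) or without any single library other than SW-138 replicate 2. FURIN was at 103 ± 10.6 CPM in SW-138 and 94.9 ± 12.1 CPM in SW-113 and did not pass, nor did RAB7A (-0.10 ± 0.05). TNS3, the tensin gene of the list, lay at the threshold (0.20 ± 0.05, edgeR adjusted p = 0.0542) and passed in 10 of its 17 alternatives, DESeq2 among them, with adjusted p-values from 0.01002 to 0.184 over the 17. Of 10 genes of BSG partners edgeR called 0, with 1 higher at an unadjusted p under 0.05, and DESeq2 and limma-voom called 0. Without SW-138 replicate 2 edgeR called 3 higher, in a fit that called 4.67% of its genes higher. SLC16A1, a lactate transporter carried by basigin, was at 211 ± 13.2 CPM in SW-138 and 188 ± 3.87 CPM in SW-113, 0.17 ± 0.05 (edgeR adjusted p = 0.110), and SLC3A2 and the cyclophilin gene PPIA were at 0.19 ± 0.10 and -0.12 ± 0.06. SLC16A1 and SLC3A2 each passed in 3 of 17 alternatives, and PPIA in 0.

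**Figure D5:**
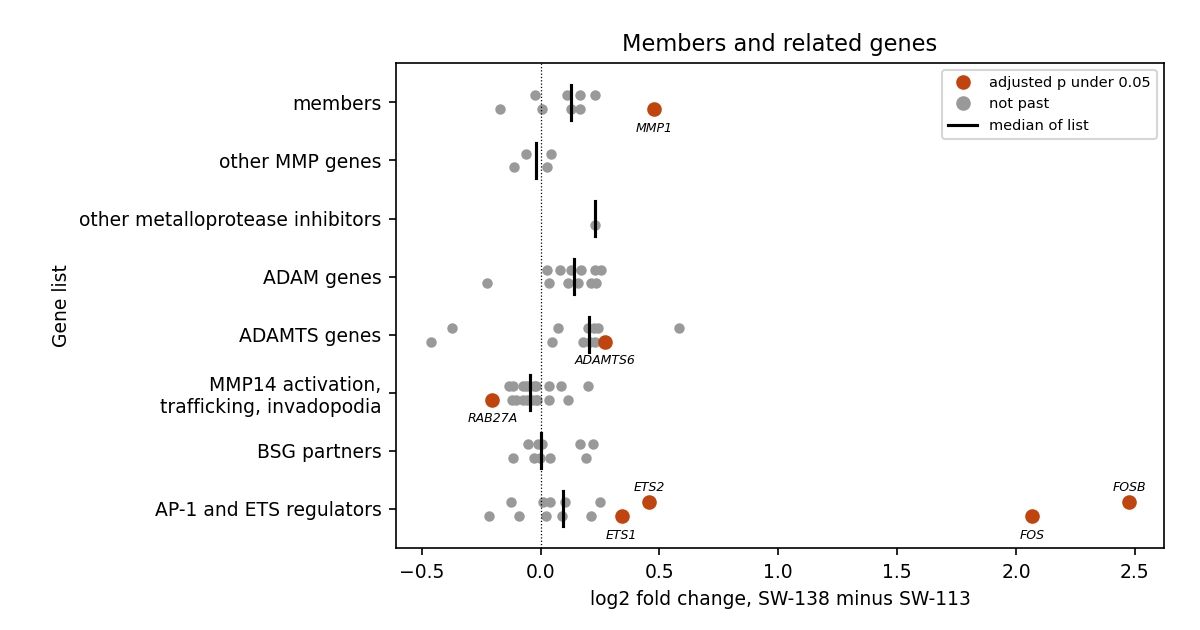
Log2 fold change (SW-138 minus SW-113) of the tested members and of the tested genes in 7 related lists, with the median of each list as a black bar and genes past an adjusted p of 0.05 in orange and named. FOS (2.07) and FOSB (2.48) lie furthest to the right, and MMP1 (0.48) is the called member.

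Patterns over the 6 libraries were compared by the root mean square difference of centred log2 CPM, over 9217 protein-coding genes with a mean of at least 10 CPM. The genes nearest to MMP1 were STMN3 (0.046), ETS2 (0.049) and TUFT1 (0.049), where the median gene stood 0.26 away. The distance includes the difference between the compounds, so called genes with a similar fold change lie near MMP1 by construction. The log2 fold changes of STMN3, ETS2 and TUFT1 were 0.46, 0.46 and 0.42, beside 0.48 for MMP1. Nearest to MMP14 were CLSTN1 (0.016), ECE1 (0.029), which encodes a membrane metalloprotease that processes endothelin, and SLC7A5 (0.032), against a median of 0.25. Nearest to MMP2 were CSF1 (0.024), NOTCH1 (0.034) and TNC (0.042), against a median of 0.20. The libraries share depth and RNA makeup between all genes, and the likeness is given as a description.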

How the data were processed

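RNA from 6 HT1080 libraries, 3 with SW-138 and 3 with SW-113, was depleted of ribosomal RNA and sequenced, per the labels. The authors deposited 1 table of expected counts per gene and library, estimates that need not be whole (10.56% to 11.56% of values in a library were not). Tools in the submitters' processing notes, given without role or order, are RSEM 1.3.3, Bowtie2 2.5.4, Trimmomatic 0.39 and DESeq2 1.42.0, and the build is GRCh38; annotation and strand setting are not given in the sources used here. RSEM divides reads shared by similar genes, so such genes are uncertain. All sample columns matched a label, and 0 others were present.

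Expected counts were rounded and genes kept by filterByExpr (16905). Compounds were compared with edgeR 4.0.16 (TMM factors 0.9755 to 1.0324, quasi-likelihood test, no block, threshold 0.05 after Benjamini-Hochberg adjustment across the 16905), SW-138 minus SW-113. Standard errors came from limma-voom (limma 3.58.1, R 4.3.3), and 95% intervals were centred on the edgeR values. CPM used TMM-scaled totals. Ratios used a pseudocount of 0.5 and an exact two-sided permutation test. Intervals and limits for counts of 0 (3 counts) cover counting error only. The fits were tested on simulated data, with 12 false calls among 16646 genes. Of the changed genes 32.7% (16 of 49) were recovered at 1.3-fold and 59.2% (29 of 49) at 1.5-fold. At 2-fold 75.5% (37 of 49) were recovered, and at 4-fold 94% (47 of 50). Each gene was simulated on its own, so the test cannot show how variation shared between genes affects the calls. Folds below 1.3 were not simulated. Coordinates, transcript lengths and coding sequences came from GENCODE release 29 (GRCh38; 57055 of 60675 gene IDs matched), promoters from RefSeq.

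The members, the 7 lists of 99 related genes and the tests were chosen with earlier results of these data known. Named were all members and, in each list, genes past the threshold and the 3 with the smallest p; others were chosen after their values were seen. Alternatives were other scalings, filters and tests (DESeq2 1.42.0, limma-voom), a replicate block, each library left out, mitochondrial and stable noncoding genes left out, length and GC trends removed and, chosen after seeing the data, protein-coding genes alone.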

Additional observations from a re-analysis of the deposited data

How the results depend on the processing

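MMP1 was higher in all 17 alternatives and MMP2, MMP9 and TIMP2 passed in none. Over all genes, 466 were higher and 687 lower; the counts were 923 and 377 with scaling by total count alone, which shifted the median of all genes by 0.06 (log2), 991 and 1069 with genes kept at 1 count in 1 library, and 1093 and 1270 with the replicate block. Leaving out single libraries gave 149 to 803 higher and 154 to 813 lower. The count of members higher was 2 with the replicate block and 2 with genes kept at 1 count in 1 library (MMP1 and MMP14 both times, MMP14 at edgeR adjusted p-values of 0.0302 and 0.00391; the block called 14% of all genes, 6.47% higher), and 1 to 4 without single libraries. Related genes had 5 higher and 1 lower; the higher count was 11 with total count alone, 13 with 1 count in 1 library, 8 with DESeq2, 15 with the replicate block, 8 with protein-coding genes alone and 4 to 14 without single libraries, and the lower count was 0, 2 and 2 with total count alone, 1 count in 1 library and the replicate block and 0 to 2 without single libraries. The cause of these moves was not tested. Signs turned for MMP3 (-0.28 to 0.43 without single libraries, -0.0012 with length and GC trends removed), TIMP1 (0.041 with total count alone, 0.0089 with trends removed, -0.095 to 0.094 without single libraries), TIMP2 (-0.015 to 0.25 without single libraries), MMP16 (0.0011 with total count alone) and MMP17 (-0.014 to 0.087 without single libraries), none of which passed.

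Replicate numbers were not taken to pair libraries, and whether same-numbered libraries were handled together is not in the labels. Deviations of same-numbered libraries correlated at 0.06, 0.18 and 0.03 for replicates 1, 2 and 3. The value of replicate 2 was the highest of all pairs, while SW-138 replicate 3 correlated best with SW-113 replicate 1. The log2 ratios kept their direction in every alternative, at 0.44 to 0.58 (MMP1 to TIMP1), 0.07 to 0.14 (MMP14 to TIMP2) and -0.32 to -0.24 (MMP2 to TIMP2) without single libraries; with the replicate block the exact permutation p was 0.25 for each, the smallest that 3 pairs allow. The intervals of MMP3 and MMP9 were too wide to resolve small differences, and MMP10 carried too few counts to test. The part of depth in the width of these intervals was not tested.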
